A study of Homo sapiens with 8 samples.

Results

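The genes of the human proteasome were followed through RNA-seq and ribosome profiling of leukaemia cells that carried either form of DNMT3A. Members were all genes with a symbol made of PSM, 1 letter from A to F and a number, which leaves out the PSMG assembly chaperones. The rule found 44 genes of 20453 listed in the count files: 7 alpha and 7 beta subunits of the 20S core, 3 immunoproteasome beta subunits, 2 tissue-specific core subunits (PSMA8 of testis and PSMB11 of thymus), 6 ATPases and 3 other subunits of the 19S base, 8 subunits of the 19S lid, 3 chaperones of 19S assembly, and 5 activators or inhibitors.

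The cells were labelled THP-1, a line derived from an acute monocytic leukaemia. One group was transduced with wild-type DNMT3A and the other with DNMT3A R882H, a change of the DNA methyltransferase that recurs in acute myeloid leukaemia; both groups were therefore transduced, and the labels used here give no untransduced group, vector, promoter, clone or time. Each genotype had 2 mRNA libraries, from total RNA copied with oligo(dT), and 2 libraries of ribosome footprints, the fragments of mRNA that ribosomes protect from RNase I. Whether the 2 libraries of a group came from different cultures is not stated, so each p-value reflects only how far these libraries scatter, which can be technical scatter.

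The proteasome degrades proteins that carry chains of ubiquitin. Its 20S core is a barrel of stacked rings, with alpha subunits that gate the entrance and beta subunits inside, of which PSMB5, PSMB6 and PSMB7 cut the substrate. The 19S particle caps the barrel: its base holds a ring of ATPases that unfolds substrates and its lid holds PSMD14, which removes ubiquitin. Because each complex needs its subunits in fixed proportions, they are commonly studied for how evenly their genes are expressed, and the transcription factor NFE2L1 raises many of them together through antioxidant response elements in their promoters.

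Library totals were 3415999 to 4523475 counts for mRNA and 603360 to 1988513 for footprints, with both mutant footprint libraries below both wild-type ones. Levels below are CPM, read counts brought to 1 common library size within each assay, and 3 counts correspond to 0.671 to 0.885 CPM in mRNA and 1.54 to 4.89 CPM in footprints. DNMT3A mRNA stood at 291 and 294 CPM in wild type and at 240 and 244 CPM in the mutant, a log2 fold change of -0.27 (SE 0.0533, edgeR quasi-likelihood adjusted p = 4.27e-06). Its footprints were 137 and 153 CPM against 143 and 148 CPM (adjusted p = 0.992), and counts per gene hold reads of both the transduced and the endogenous copy. Of 17 monocyte and myeloid markers, 4 reached 10 CPM in all mRNA libraries and 8 were at 0 in all of them, among them S100A8, S100A9, CSF1R and MPO. Of 15 erythroid markers, 14 reached 10 CPM, and their summed level was 3253 to 3308 CPM in wild type and 2817 to 2851 CPM in the mutant. Of 4 epithelial markers 3 reached 10 CPM (summed, 819 to 842 CPM in wild type and 666 to 673 CPM in the mutant), of 4 T cell markers 1 did, and of 4 B cell markers 0 did. The defining monocyte genes were thus largely absent from libraries labelled as monocytic. The erythroid and epithelial sums moved with genotype, and their part in the results on the proteasome was not tested. In bulk libraries fewer cells of a type and less RNA per cell cannot be told apart.

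RefSeq promoter windows (GRCh38.p14, 250 bases before the start) were on hand for 39 members, not for PSMA7, PSMB1, PSMB6, PSMB7 and PSMD4. Both strands were searched for TGACNNNGC, the core of the antioxidant response element. Its TGAC also begins cyclic AMP response elements and some AP-1 sites, and no match overlapped a match of the other motifs searched. The core occurred in 11 members (28.2%), against 13.2% of 27305 genes and 10.9% of 35116 windows of the same length. CCAAT, the NF-Y box, occurred in 18 members (46.2%, against 37% of genes and 32% of windows), and the ETS core CCGGAAG in 10 members (25.6%, against 10.2% of genes and 8.52% of windows). These shares are descriptions without a test, and a match is not evidence of a bound site. Of the 11 members with the antioxidant core, 3 rose in mRNA, 2 fell and 6 were not called, near the background of 18.9% of all genes called in each direction. Shown here, with the match in capitals, are the 4 called members whose match lies before the whole annotated gene, because they hold the same core and were called in opposite directions (PSMD12 and PSME4 rose in mRNA, PSMB3 and PSMD3 fell). The calls of PSME4 and PSMB3 were lost with the gene density trend described below removed (0.02, adjusted p = 0.797, and -0.05, adjusted p = 0.502). Each is 29 bases written 5′ to 3′ on the gene's strand, and in PSME4 the core is on the other strand.
PSMD12: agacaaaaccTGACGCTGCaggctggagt
PSME4: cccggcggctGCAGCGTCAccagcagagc
PSMB3: gcctccgtttTGACTTTGCaaccaaacta
PSMD3: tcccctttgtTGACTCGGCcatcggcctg
They lie at chr17:67366724-67366752 on the minus strand (PSMD12), chr2:53971009-53971037 on the minus strand (PSME4), chr17:38752627-38752655 on the plus strand (PSMB3) and chr17:39980760-39980788 on the plus strand (PSMD3). The fifth called member with the core, PSMA4, has its match inside the gene, before an alternative start.

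The whole set took a nearly constant share of each assay's counts. In mRNA the shares were 0.686% and 0.677% in wild type and 0.696% and 0.688% in the mutant. In footprints they were 1.17% and 1.16% in wild type and 1.18% and 1.14% in the mutant. Member mRNA summed to 6917 and 6858 CPM in wild type and to 6870 and 6833 CPM in the mutant. Their footprints summed to 11883 and 11833 CPM in wild type and to 11547 and 11215 CPM in the mutant. In these scaled sums the mRNA ranges overlapped, and both mutant footprint sums lay below both wild-type sums. In the unscaled shares both mutant mRNA values lay above both wild-type ones, and the footprint values overlapped. The order of the groups thus depends on the scaling.

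**Figure D1:**
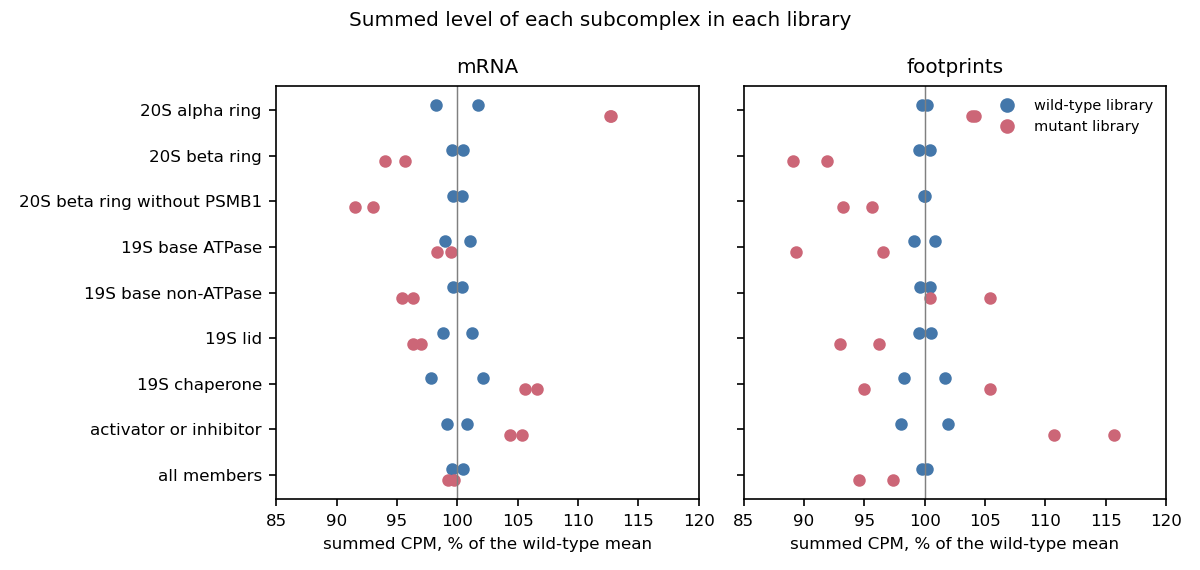
Summed CPM of each subcomplex in each library, as a percentage of the mean of the 2 wild-type libraries, for mRNA (left) and footprints (right); each point is 1 library. The alpha ring of the mutant lies to the right of the wild type in both panels and the beta ring to the left, while the mRNA sum of all 44 members stays near 100.

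Inside the set, proportions between subcomplexes shifted. Alpha ring mRNA summed to 898 and 867 CPM in wild type and to 994 and 993 CPM in the mutant. Its share of all members' mRNA moved from 13% and 12.6% to 14.5% in both mutant libraries. The sum holds almost nothing of the alpha subunit PSMA2, which had 0 or 1 counts in every library. Beta ring mRNA summed to 1946 and 1928 CPM in wild type and 1853 and 1821 CPM in the mutant. Neither ring's groups overlapped. In footprints the beta ring fell from 4801 and 4842 CPM to 4434 and 4294 CPM, or from 40.4% and 40.9% to 38.4% and 38.3% of all members' footprints. Without PSMB1, the beta ring's sums were 3706 and 3708 CPM in wild type and 3545 and 3457 CPM in the mutant, still without overlap. The summed footprints of the activators and the inhibitor rose from 693 and 666 CPM to 786 and 753 CPM. The inhibitor PSMF1 itself did not rise, at 128 and 124 CPM in wild type and 107 and 117 CPM in the mutant. A sum is set mostly by its most counted genes, and these are levels with no test. The sums are not corrected for the gene density trend described below.

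The mRNA comparison asked which members differed between cells given mutant and wild-type DNMT3A. Of 44 members, 40 passed the filter on low counts (PSMA2, PSMA8, PSMB8 and PSMB11 did not). At a Benjamini-Hochberg adjusted p under 0.05 in edgeR's quasi-likelihood test, 12 were higher in the mutant, 7 were lower and 21 were not called. Over all 10756 genes tested, 18.9% were called higher and 18.9% lower. The members' median log2 fold change was 0.0758 (SD 0.207), and that of all genes -0.00215 (SD 0.336). In each comparison below, the sign of a log2 fold change is mutant over wild type. Whether the libraries of the groups overlap is a description of the same values that were tested, and no further support for a call.

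**Figure D2:**
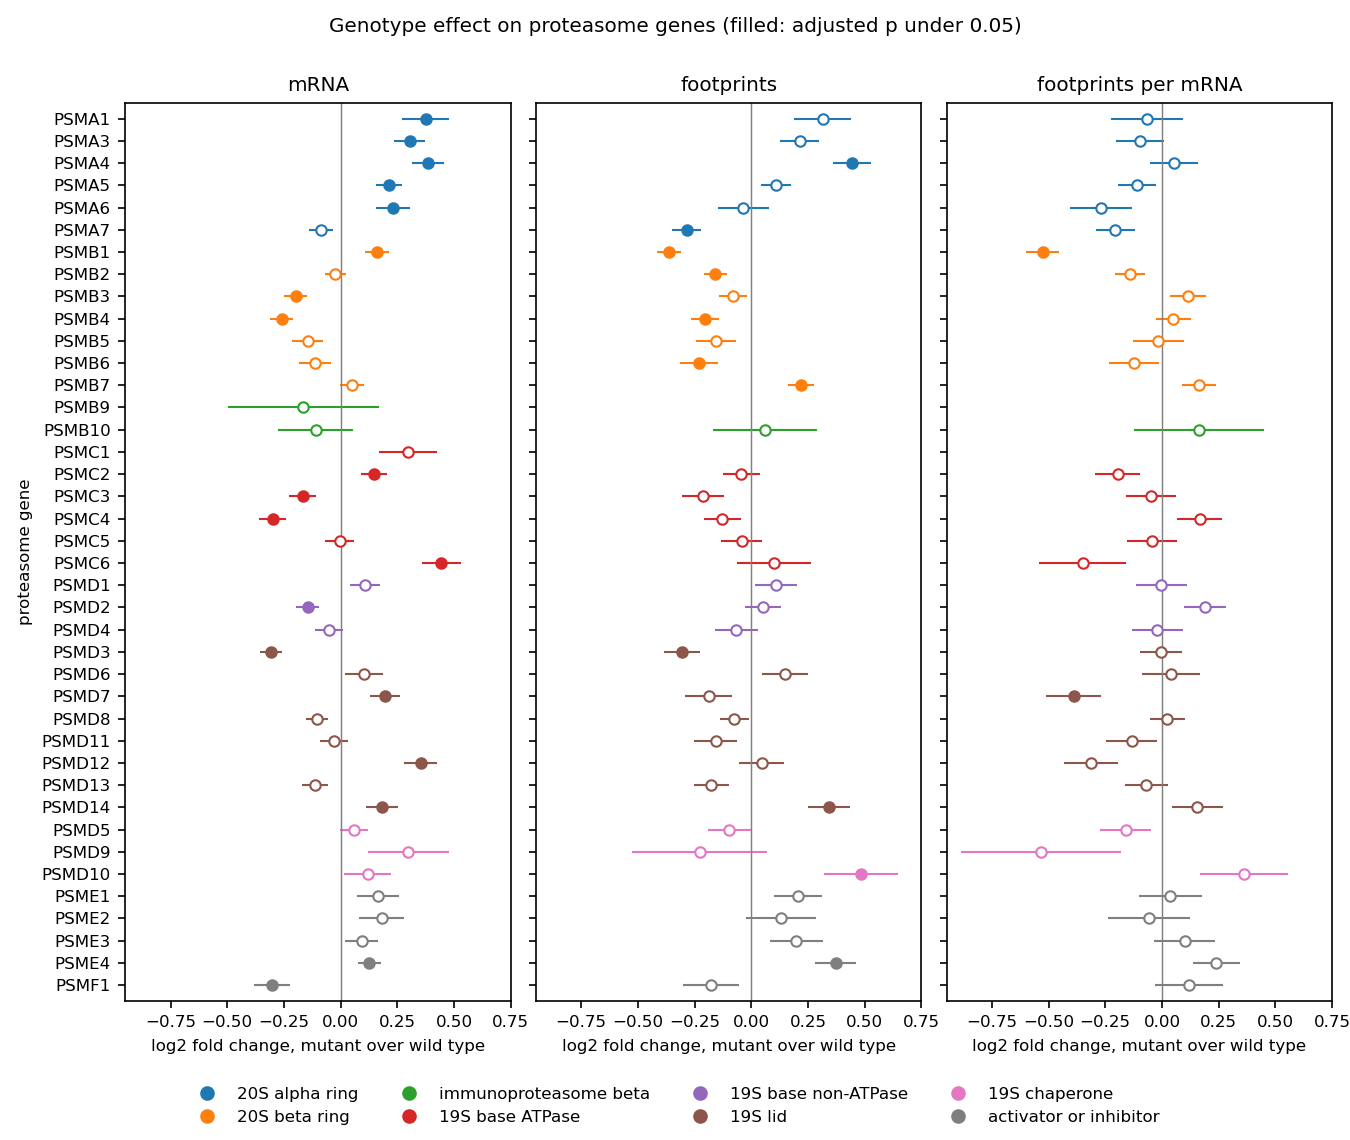
Log2 fold change, mutant over wild type, of each tested member in 3 panels (mRNA, footprints, footprints per mRNA), with bars of 1 SE; colours are subcomplexes and filled points have an adjusted p under 0.05. In mRNA 5 of 6 tested alpha subunits are filled to the right of 0, and in footprints per mRNA only PSMB1 and PSMD7 are filled.

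The alpha ring moved mostly one way in mRNA: 5 of 6 tested subunits rose (background 18.9%) and 0 fell (background 18.9%). Their median log2 fold change was 0.267. Without wild-type mRNA library 2, PSMA1, PSMA3 and PSMA4 were still called, and PSMA5 (0.20, adjusted p = 0.0593) and PSMA6 were not. PSMA4, an alpha subunit encoded on chromosome 15, was at 113 and 118 CPM in wild type and 155 and 148 CPM in the mutant, a log2 fold change of 0.39 (SE 0.0694, adjusted p = 4.86e-07). PSMA3 was at 120 CPM in both wild-type libraries and 148 and 149 CPM in the mutant (0.30, SE 0.0691, adjusted p = 9.35e-05). PSMA5 went from 217 and 212 CPM to 255 and 242 CPM (0.21, SE 0.056, adjusted p = 0.000801). In all 3 genes both mutant libraries lay above both wild-type ones. PSMA1 was at 48.1 and 46.8 CPM in wild type and 60.8 and 62.1 CPM in the mutant (0.38, SE 0.104, adjusted p = 0.00153). PSMA6 also rose (0.23, adjusted p = 0.00876). PSMA7 was at 293 and 272 CPM against 253 and 279 CPM, with overlapping groups (-0.09, adjusted p = 0.196).

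PSMA2, an alpha subunit of every 20S core, had 0 or 1 counts in every library. RefSeq lists 3 pseudogenes named after PSMA2, and how reads with several matches were treated is not given in the sources used here, so its near-zero value cannot be read as absence of the mRNA. The part of such copies in any member's value was not tested. In all, 51 RefSeq pseudogenes are named after 20 of the members, and 5 members overlap another protein-coding gene.

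In the beta ring's mRNA 1 subunit rose (background 18.9%), 2 fell (background 18.9%) and 4 were not called (median -0.114). PSMB4, a structural beta subunit, fell from 386 and 385 CPM to 320 and 323 CPM (-0.26, SE 0.0487, adjusted p = 1.33e-06). PSMB3, also structural, was at 341 and 325 CPM in wild type and 295 and 284 CPM in the mutant (-0.20, SE 0.0506, adjusted p = 0.000551). The mutant libraries of both genes lay below the wild-type ones. PSMB1 rose from 262 and 256 CPM to 293 and 285 CPM (0.16, SE 0.0528, adjusted p = 0.00996), a call that was lost in DESeq2.

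None of the 3 catalytic subunits was called in mRNA. PSMB5, which carries the chymotrypsin-like site, was at 142 and 135 CPM in wild type and 126 and 124 CPM in the mutant, without overlap (-0.15, 95% interval -0.28 to -0.0095, adjusted p = 0.0848). PSMB6, with the caspase-like site, was at 146 and 125 CPM against 120 and 128 CPM (-0.11, 95% interval -0.25 to 0.02, adjusted p = 0.193). PSMB7, with the trypsin-like site, was at 254 and 257 CPM against 272 and 256 CPM (0.05, 95% interval -0.05 to 0.16, adjusted p = 0.48). The groups of PSMB6 and PSMB7 overlapped.

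Interferon-induced beta subunits replace the catalytic ones in the immunoproteasome, which makes peptides for antigen presentation, and their counts were low. PSMB8, the counterpart of PSMB5, had 0 to 2 counts in every library, below the 3 counts taken as the floor. PSMB9, the counterpart of PSMB6, had 14, 27, 19 and 20 mRNA counts in wild-type libraries 1 and 2 and mutant libraries 1 and 2, which is 2.83% to 4.84% of the PSMB6 counts. PSMB10, the counterpart of PSMB7, had 65, 103, 91 and 75 mRNA counts, or 7.45% to 8.98% of those of PSMB7. These percentages are of counts, not corrected for gene length. As levels, PSMB9 mRNA was at 4.13 and 6.04 CPM in wild type and 4.27 and 5.09 CPM in the mutant, and PSMB10 mRNA at 19.2 and 23.1 CPM against 20.4 and 19.1 CPM. Both overlapped between genotypes (adjusted p = 0.734 for PSMB9 and 0.638 for PSMB10). PSMB10 footprints were at 38.4 and 27.2 CPM against 34.3 and 32.6 CPM, also overlapping (adjusted p = 0.894). PSMA8 had 0 counts in all libraries, and PSMB11 1 count in a single library.

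The ATPases of the 19S base thread substrates into the core. Of these 6 genes, 2 rose (background 18.9%), 2 fell (background 18.9%) and 2 were not called. PSMC6 rose from 73.2 and 63.8 CPM to 101 and 82.5 CPM, the largest log2 fold change among the tested members' mRNAs (0.44, SE 0.0867, adjusted p = 4.24e-06). PSMC4 went the other way, from 207 and 209 CPM to 174 and 164 CPM (-0.30, SE 0.0604, adjusted p = 8.25e-06). The genotypes did not overlap for either ATPase, though both belong to the same ring. PSMC2 rose (0.15, adjusted p = 0.0336), PSMC3 fell (-0.17, adjusted p = 0.0143) and PSMC5 was at -0.0038 (adjusted p = 0.97). PSMC1 had 99 to 170 mRNA counts per library (0.30, adjusted p = 0.0522) but 0 to 2 footprint counts, and RefSeq lists 13 pseudogenes named after it, the most of any member.

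Of the other base subunits, PSMD2, a scaffold that docks ubiquitin receptors, fell from 329 and 331 CPM to 294 and 304 CPM (-0.14, SE 0.0504, adjusted p = 0.0143), but it was not called without wild-type mRNA library 1 or 2 (adjusted p = 0.0931 and 0.182) or mutant mRNA library 1 (adjusted p = 0.0968). PSMD1 and the ubiquitin receptor PSMD4 were not called. In the lid 3 subunits rose (background 18.9%), 1 fell (background 18.9%) and 4 were not called. PSMD3, a structural lid subunit, had the smallest p of all members: it fell from 412 and 407 CPM to 335 and 325 CPM (-0.31, SE 0.048, adjusted p = 4.53e-09). PSMD12 rose from 106 and 103 CPM to 131 and 135 CPM (0.35, SE 0.073, adjusted p = 1.42e-05). Mutant and wild-type libraries did not overlap for either gene. PSMD7, the partner of PSMD14 in the deubiquitinase pair, rose by 0.20 (adjusted p = 0.0111) and PSMD14 itself by 0.18 (adjusted p = 0.0271).

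The 19S chaperones PSMD5, PSMD9 and PSMD10 were not called in mRNA. Among the regulators, PSMF1, an inhibitor of the core, fell from 106 CPM in both wild-type libraries to 80.6 and 92.1 CPM (-0.30, SE 0.0796, adjusted p = 0.000861). Without mutant mRNA library 1 it was not called (-0.20, adjusted p = 0.097). PSME4, the large activator PA200, rose by 0.13 (adjusted p = 0.0347). PSME1 and PSME2, which form the interferon-induced PA28 cap, and PSME3, its nuclear relative, were not called.

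The log2 fold change between genotypes varied with local gene density over all genes tested, and this touched these calls. Density was the number of RefSeq genes within 500 kb on each side, the gene itself included. The fitted mRNA log2 fold change was 0.159 at a density of 16 and -0.164 at 63, and in footprints 0.144 and -0.131. With that trend removed, 9 members were higher in mRNA (background 15.2%) and 3 lower (background 13.4%). PSMA3, PSMA4, PSMA5, PSMA6, PSMC6 and PSMD12 remained higher, and PSMC4, PSMD3 and PSMF1 remained lower. PSMA1 lost its call (0.22, adjusted p = 0.0953). PSMB4 moved toward 0, to -0.10 (adjusted p = 0.123), and so did PSMB3, to -0.05 (adjusted p = 0.502), so that 0 of 7 beta subunits were called. PSMB1, PSMC2, PSMD7, PSMD14, PSME4, PSMC3 and PSMD2 also lost their calls. The 3 activators PSME1, PSME2 and PSME3 gained one, at 0.34, 0.36 and 0.30 (adjusted p = 0.00215, 0.00194 and 0.000294). The alpha ring kept 4 of 6 subunits higher, with a median of 0.225. The beta ring's median was then -0.00959 in mRNA, against -0.114 as fitted, and -0.0813 in footprints, against -0.159 as fitted. The cause of the trend was not tested.

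**Figure D3:**
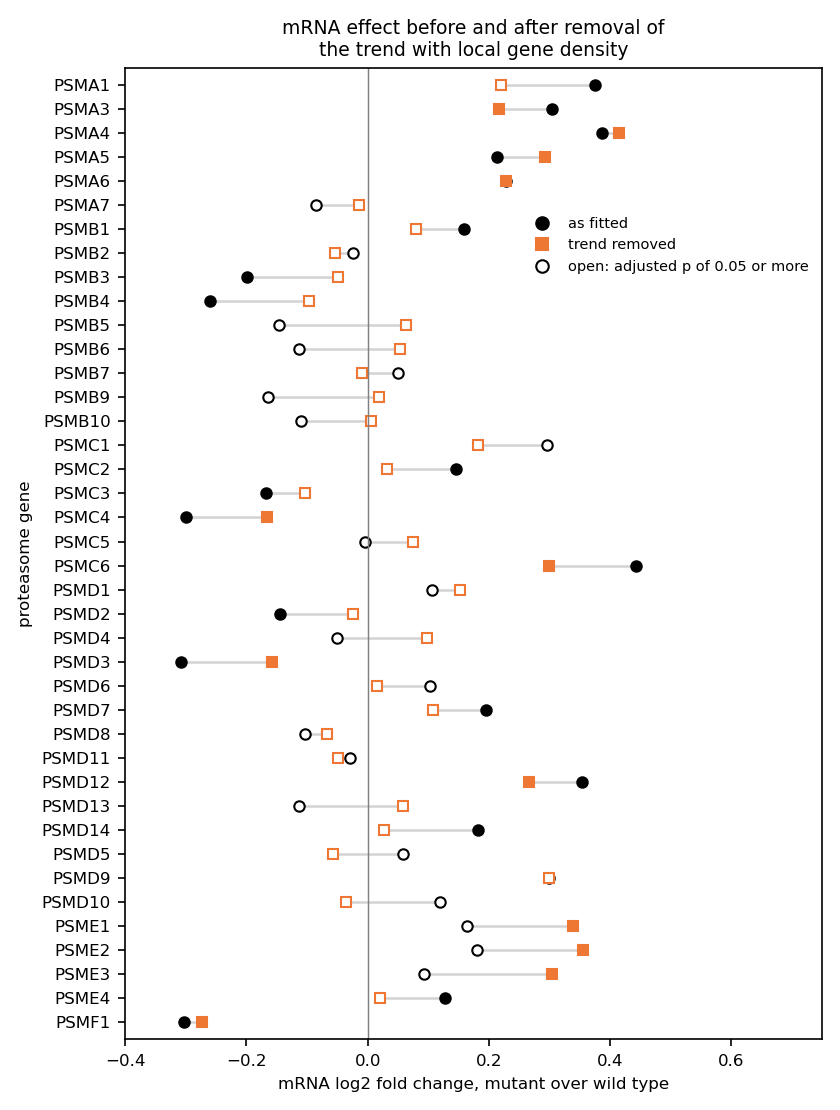
mRNA log2 fold change of each tested member as fitted (circles) and with the trend on local gene density removed (squares); open symbols have an adjusted p of 0.05 or more. PSMA4 and PSMA6 hardly move, PSMB3 and PSMB4 move toward 0, and PSME1, PSME2 and PSME3 move away from 0.

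In footprints, 38 members were tested (PSMB9 and PSMC1 dropped out as well). Here 5 were higher in the mutant (background 10.3%), 6 were lower (background 10.9%) and 27 were not called. The median log2 fold change was -0.0431, against 0.00555 over all 9181 genes. Removal of mutant footprint library 1 or 2, which leaves 1 library in that arm, lowered the number of calls over all genes as well as among the members. The PSMB1 log2 fold change was -0.41 without library 1 and -0.33 without library 2.

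Core subunits made up most of the lower footprint calls. PSMB1 fell from 1094 and 1134 CPM to 889 and 837 CPM, the smallest p among the members' footprints (-0.36, SE 0.0528, adjusted p = 2.89e-08), and its call held without each of the 4 libraries in turn. PSMA7 fell from 576 and 625 CPM to 489 and 502 CPM (-0.29, SE 0.0652, adjusted p = 0.000478). PSMB4 was at 618 and 638 CPM against 555 and 531 CPM (-0.20, SE 0.0628, adjusted p = 0.0112). The libraries of the genotypes did not overlap for these 3 genes, but PSMA7 and PSMB4 were not called in DESeq2 (adjusted p = 0.0519 and 0.155). PSMB2, a structural subunit, was at 1218 and 1192 CPM in wild type and 1110 and 1035 CPM in the mutant (-0.16, SE 0.0502, adjusted p = 0.0144). The catalytic PSMB6 fell from 304 and 319 CPM to 263 and 270 CPM (-0.23, SE 0.0836, adjusted p = 0.0341). The catalytic PSMB5, at 272 and 251 CPM against 239 and 226 CPM, was not called (-0.16, 95% interval -0.33 to 0.02, adjusted p = 0.218).

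Not all core subunits fell. PSMB7, the remaining catalytic subunit, rose from 702 and 714 CPM to 826 and 823 CPM (0.22, SE 0.0563, adjusted p = 0.00202), so catalytic subunits of one ring were called in opposite directions. The PSMB6 call was lost with the density trend removed (-0.11, adjusted p = 0.419), without wild-type footprint library 2 (adjusted p = 0.159) and without mutant footprint library 1 or 2 (adjusted p = 0.353 and 0.123). PSMA4 rose from 241 and 232 CPM to 339 and 295 CPM (0.44, SE 0.0845, adjusted p = 2.21e-05). It was the only tested alpha subunit called higher in both mRNA and footprints. Without mutant footprint library 1, PSMA4 was at 0.32 (adjusted p = 0.147) and PSMB7 at 0.21 (adjusted p = 0.133), neither called.

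Outside the core, PSMD3 footprints fell from 362 and 378 CPM to 318 and 272 CPM (-0.31, SE 0.0796, adjusted p = 0.00238), close to its mRNA change. PSMD14 rose from 184 and 192 CPM to 244 and 230 CPM (0.34, SE 0.0942, adjusted p = 0.00425). PSME4 rose from 214 and 203 CPM to 288 and 241 CPM (0.37, SE 0.0907, adjusted p = 0.00111). These 3 genes were called the same way in mRNA, but only the PSMD3 mRNA call held in DESeq2 and with the density trend removed. With the trend removed, PSMD14 mRNA was at 0.03 (adjusted p = 0.815) and PSME4 mRNA at 0.02 (adjusted p = 0.797). PSMD10 (gankyrin), a 19S chaperone, was at 53.6 and 57.5 CPM against 87.2 and 63.5 CPM (0.48, SE 0.162, adjusted p = 0.0219). Its mutant libraries did not overlap the wild-type ones, but without mutant footprint library 1 the change was 0.19 (adjusted p = 0.69). All 5 tested ATPases were without a call, from -0.21 (PSMC3) to 0.10 (PSMC6). With the density trend removed, PSMA4, PSMB7, PSME1, PSME3 and PSME4 were higher (background 8.42%) and PSMA7, PSMB1 and PSMB2 lower (background 9.25%).

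**Figure D4:**
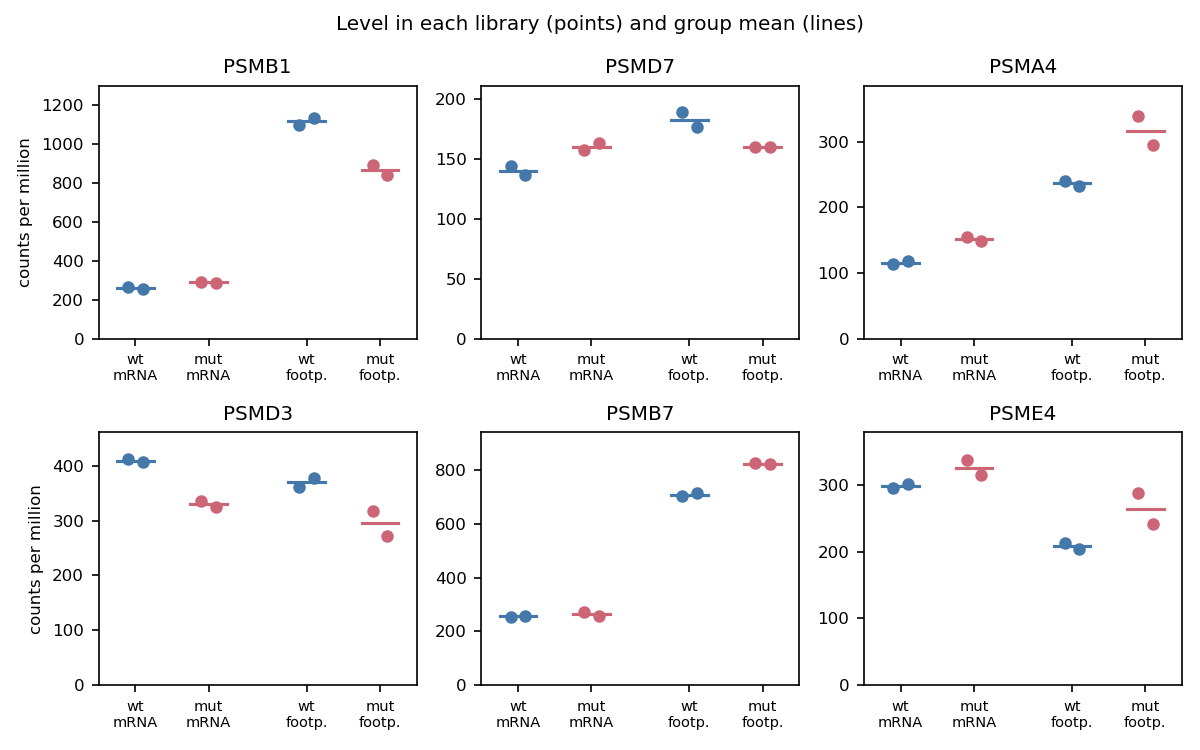
CPM of 6 members in each library (points) with the mean of each group (lines), for mRNA and footprints (footp.) in wild type (wt) and mutant (mut); each panel starts at 0. PSMB1 mRNA is slightly higher in the mutant while its footprints drop from 1094 and 1134 CPM to 889 and 837 CPM; PSMD3 is lower in both assays and PSMA4 higher in both.

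Footprints per mRNA, the ratio of a gene's footprint CPM to its mRNA CPM, is a measure of how densely ribosomes cover a message relative to other genes. It is not the number of ribosomes on each message, since both counts depend on the length counted. The members stood high: their median was 1.55 in wild type and 1.56 in the mutant, against 1.02 and 1.01 over 9166 genes. Of 38 tested members, 35 lay above the all-gene median in wild type and 33 in the mutant. CPM of different genes depends on the length counted, so levels were not compared between members, apart from the uncorrected count ratios of immunoproteasome subunits above; the ratio sets 2 counts of 1 gene against each other, but it too depends on the counted feature, which is not given in the sources used here.

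The members ranged widely among themselves. PSMB1 had the highest ratio in wild type, 4.30 (4.17 to 4.43 over the 4 pairs of libraries), at the 99.6th percentile of all genes. PSMB2 (2.81) and PSMB7 (2.77) followed, so beta subunits held the first 3 places, and PSMB4 was the lowest of the ring (1.63). The alpha ring spanned 2.26 (PSMA1) to 1.40 (PSMA6). The 19S base was lower, from 1.54 (PSMC4) to 0.931 (PSMC6) in the tested ATPases and from 1.57 (PSMD1) to 1.03 (PSMD2) in the others. The lid ran from 2.06 (PSMD6) to 0.904 (PSMD3), and the chaperones from 1.34 (PSMD5) to 1.1 (PSMD10). PSME1 (2.40) and PSME4 (0.698), both activators, stood at 4 and 38 of 38 in the order. Ranges over library pairs overlapped for PSMB2 (2.68 to 2.94) and PSMB7 (2.73 to 2.81), while that of PSMB1 was separate from both.

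**Figure D5:**
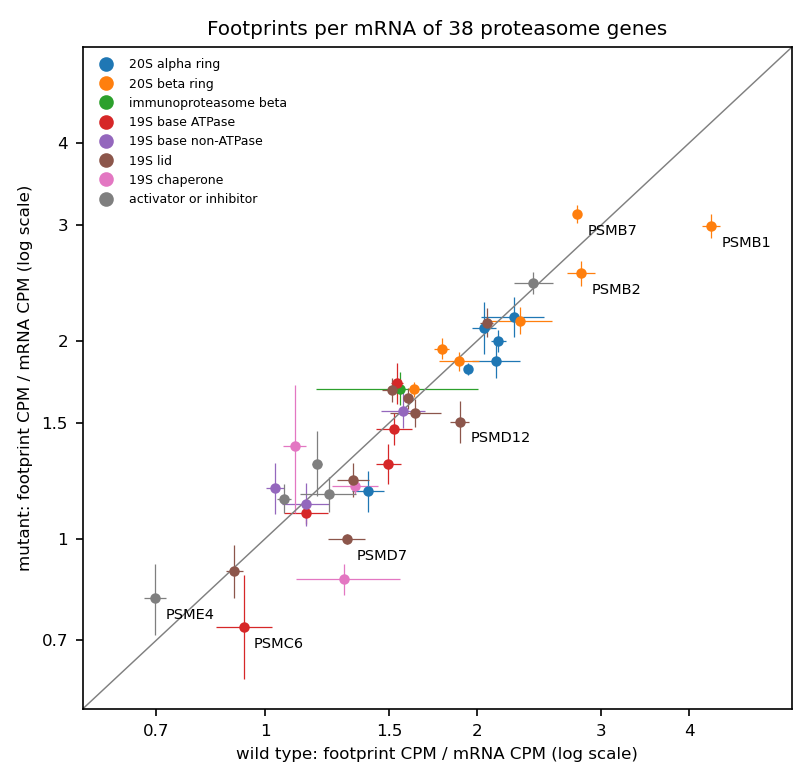
Footprint CPM divided by mRNA CPM in wild type (horizontal, log scale) and mutant (vertical, log scale) for the 38 tested members; bars run from the lowest to the highest of the 4 library pairs and the line marks equal values. PSMB1 lies below the line, at 4.30 in wild type and 2.99 in the mutant, and PSMD7 moves from 1.30 to 0.998.

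The interaction of genotype and assay tested whether footprints changed other than mRNA. Of 38 members, 0 were higher in the mutant (background 1.67%) and 2 were lower (background 2.49%). PSMB1 went from 4.30 to 2.99 (2.86 to 3.12 over library pairs), a log2 fold change of -0.53 (SE 0.0728, adjusted p = 1.35e-07). Its mRNA was called higher and its footprints lower. In the mutant PSMB7 had 3.12, and its range over library pairs (3.02 to 3.22) overlapped that of PSMB1. With the density trend removed the change of PSMB1 was -0.52 (adjusted p = 1.94e-07, background 2.61%). The rise of PSMB1 mRNA alone was then 0.08 (adjusted p = 0.266), and its mRNA call was also lost in DESeq2. PSMB1 was called without each of the 8 libraries in turn, and RefSeq lists 0 pseudogenes named after it and 0 genes that overlap it. PSMB1 lies on chromosome 6 (170535120 to 170553307, GRCh38.p14).

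PSMD7 was close to the threshold. Its mRNA was at 144 and 137 CPM in wild type and 157 and 163 CPM in the mutant, and its footprints at 189 and 177 CPM against 160 CPM in both mutant libraries. Footprints per mRNA went from 1.30 to 0.998 (-0.39, SE 0.122, adjusted p = 0.0495). The call was lost without the low-count filter (adjusted p = 0.0518), in DESeq2 (adjusted p = 0.262) and with the density trend removed (adjusted p = 0.0556). It was also lost when any library other than mutant mRNA library 1 was left out, at most with an adjusted p of 0.277. RefSeq lists 4 pseudogenes named after it.

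Other members were not called for footprints per mRNA. The subunits with mRNA calls included PSMD12, at -0.31 (SE 0.118, adjusted p = 0.125), and PSMC6, at -0.35 (SE 0.192, adjusted p = 0.349). Among the catalytic subunits PSMB7 was at 0.16 (95% interval 0.015 to 0.31, adjusted p = 0.243), PSMB6 at -0.12 (-0.34 to 0.09, adjusted p = 0.622) and PSMB5 at -0.02 (-0.23 to 0.20, adjusted p = 0.964). PSMB10, with few counts, was at 0.16 with an interval from -0.40 to 0.72 (adjusted p = 0.826). The members' SE had a median of 0.111 in this comparison, against 0.0665 in mRNA and 0.0916 in footprints.

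The estimated spread between replicates was small, with a common coefficient of variation of 2.25% in mRNA, 1.92% in footprints and 2.17% in the joint fit. With 10% assumed instead, 0 members were called in any comparison, where the share of all genes called was 2.91% for mRNA, 3.14% for footprints and 0.142% for their ratio.

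Genes that serve the proteasome without matching the rule were read from a list of 37. In mRNA 14 were higher (background 18.9%), 6 lower (background 18.9%) and 17 not called. In footprints 6 were higher (background 10.3%), 4 lower (background 10.9%) and 26 not called, so the lower counts lay near the background in both assays. POMP, the chaperone that matures the beta ring, rose in mRNA by 0.45 (SE 0.0655, adjusted p = 2.29e-10) and in footprints by 0.68 (adjusted p = 1.17e-11). Its mRNA was at 131 CPM in both wild-type libraries and 188 and 170 CPM in the mutant, without overlap. UBA6, a ubiquitin-activating enzyme, rose in mRNA by 0.47 (adjusted p = 9e-12), and UCHL5, a deubiquitinase of the 19S particle, by 0.42 (adjusted p = 1.25e-07). RPS27A, which encodes ubiquitin fused to a ribosomal protein, rose in mRNA by 0.25 (adjusted p = 3.14e-09). Whether reads of near-identical copies enter the RPS27A counts was not tested, and its value is uncertain. UBQLN1, a shuttle that carries ubiquitinated proteins, rose in footprints (0.44, adjusted p = 0.000233), and UBA1, the main ubiquitin-activating enzyme, fell (-0.31, adjusted p = 0.00106). NFE2L1, named for its role and outside the naming rule, was not called in mRNA (-0.10, adjusted p = 0.188) or footprints (-0.01, adjusted p = 0.962). It is 1 of 8 listed genes of transcriptional control. Of these 8, 2 were higher in mRNA (background 18.9%) and 3 lower (background 18.9%). In footprints 0 were higher (background 10.3%) and 2 lower (background 10.9%).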

How the data were processed

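mRNA and ribosome footprints were measured in 8 libraries, 2 for each genotype and assay, grouped by the sample labels. The deposited values are whole-number read counts per Ensembl gene, which the authors did not normalize, per the files themselves. Per the submitters' processing notes, the tools were featureCounts, STAR, Bowtie2, Trimmomatic and cutadapt and the build GRCh38 (hg38). Their roles, the strand setting, the counted feature and the treatment of reads with several matches were not given in the sources used here.

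IDs were matched to symbols (20407 of 20453; 46 were not). The test of counts was that of edgeR 4.0.16 (R 4.3.3; TMM factors within each assay, filterByExpr, quasi-likelihood test with legacy set to FALSE) over all genes, with Benjamini-Hochberg adjustment at 0.05. For footprints per mRNA the term tested was genotype by assay, over all 8 libraries. The procedure was tested on simulated counts with known changes and no gene density trend, so that test does not bear on the trend. Alternatives were RLE factors, DESeq2 1.42.0, no low-count filter, a 10% coefficient of variation, removal of the gene density trend (loess), a replicate block, and each library left out in turn.

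Members and lists were chosen with earlier results of these data known. Values in every library are given for the catalytic and immunoproteasome subunits and for the called members (up to 6 per direction and comparison, by smallest p), and pathway genes are named up to 4 per comparison; one of those is not reported here. The rule also named the highest and lowest footprints per codon of each subcomplex. Coding lengths were not used here, so footprints per mRNA took their place, a choice made after the data were seen, and no ratio between subunits per length was computed. 95% intervals are the estimate with 1.96 SE on either side. Floors of 3 counts cover counting error only, since reads that carry no molecular identifier can be copies of 1 molecule.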

Additional observations from a re-analysis of the deposited data

Results flagged for a closer look

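In 2 members the genotype effect differed between footprints and mRNA by the interaction test of edgeR (Benjamini-Hochberg over 9166 genes). For PSMB1 the difference was -0.53 on the log2 scale (adjusted p = 1.35e-07): the mRNA log2 fold change was 0.16 and that of footprints -0.36, and both mutant footprint libraries lay below both wild-type ones. For PSMD7 the difference was -0.39 (adjusted p = 0.0495), with mRNA at 0.20 and footprints at -0.19, of which only the mRNA change was called. With a coefficient of variation of 10% assumed, the adjusted p was 0.68 for PSMB1 and 0.967 for PSMD7.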

How the results depend on the processing

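RLE factors changed no count of calls by over 1.5 times. DESeq2 called 1467 genes in mRNA (edgeR 4060), 397 in footprints (1950) and 123 in footprints per mRNA (381); of the members it called 4 higher and 4 lower in mRNA, 1 higher and 1 lower in footprints and 1 lower in footprints per mRNA; in the alpha ring it kept PSMA3 and PSMA4 in mRNA. An assumed coefficient of variation of 10% called 313, 288 and 13 genes and 0 members. Without the low-count filter, 1 member was lower in footprints per mRNA. With the gene density trend removed, 3 members were lower in mRNA, 3 in footprints and 1 by the interaction, and the mRNA log2 fold changes of PSMB5 (0.063), PSMB6 (0.054), PSMB7 (-0.0096), PSMB9 (0.019) and PSMB10 (0.0050) changed sign, all without a call. The cause of these differences was not tested.

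Leaving out 1 library at a time gave 2280 to 3838 mRNA calls, 274 to 1799 footprint calls and 142 to 448 interaction calls. Members higher ranged from 5 to 13 in mRNA and from 0 to 5 in footprints; members lower from 4 to 8, from 2 to 6 and, in footprints per mRNA, from 1 to 2. Among the members named with values in every library, signs changed only in uncalled values: PSMB9 mRNA (-0.375 to 0.174), PSMB10 mRNA (-0.219 to 0.049), PSMB10 footprints (-0.196 to 0.30), and PSMB5 (-0.081 to 0.034) and PSMB10 (-0.092 to 0.40) in footprints per mRNA. An arm left with 1 library was assumed to vary like the others. Without wild-type mRNA library 2, 5 members were higher, and without mutant mRNA library 1, 4 were lower.

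Replicate numbers are not said to pair libraries, and same-numbered libraries deviated together only weakly (6 pairs of groups, r from 0.0229 to 0.143 over 5690 genes). With the replicate block 598 genes were called in footprints per mRNA, and members numbered 13 higher and 9 lower in mRNA, 6 and 8 in footprints, and 0 and 2 in footprints per mRNA. Footprints per codon, planned with its alternatives, was not run. The mutant footprint libraries were the shallowest (944824 and 603360 counts).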
